A study of Mus musculus with 9 samples.

Results

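Plasminogen activation was described through 7 genes in injured quadriceps of mice: the activators Plau and Plat, the cell surface receptors Plaur and Plgrkt, and the serpins Serpine2, Serpinf1 and Serpinf2. They are 7 of the 55536 annotated genes in the count files. The genes were chosen by symbol as a family, at a point when results of the comparison made here were known; the rule gives no measured value and no threshold. Their differences between genotypes are therefore a description, with adjusted p-values taken from a fit of all genes, and serve as support for nothing else.

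The study profiled quadriceps by bulk RNA sequencing after volumetric muscle loss, the surgical removal of a block of muscle, in 5 libraries labelled Il17ra-/- and 4 labelled WT. Il17ra encodes a receptor subunit for interleukin-17 cytokines, and the nature of the allele is not labelled. All 9 libraries are labelled C57BL/6 and 6 weeks of age. In both groups the material is labelled saline and the harvest 1 week after surgery, whereas the protocol text names PCL and a collection at 6 weeks; which of these holds was not resolved, and it is the same for both groups. The design text speaks of triplicate animals and no label links a library to an animal, so p-values measure the spread between these libraries.

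Plasminogen is a zymogen made mainly by the liver and carried in blood. Urokinase (Plau) and tissue-type activator (Plat) cut it to plasmin, the protease that dissolves fibrin and cleaves matrix proteins, and receptors hold the reaction at cell surfaces. Serpins trap activators or plasmin in inactive complexes. In mice, loss of urokinase or of plasminogen impairs regeneration of injured muscle.

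Libraries held 35221211 to 46435401 counts with the Il17ra-/- label and 31294089 to 37580589 with the WT label. Il17ra itself stood at 208 ± 43.2 CPM (SD, n = 5) in the libraries labelled Il17ra-/- and at 96.8 ± 19.7 CPM (SD, n = 4) in those labelled WT. CPM is the usual library-scaled read count, computed here on TMM-scaled library totals. The targeted gene was thus higher under the knockout label (log2 fold change 1.11, edgeR adjusted p = 0.00208), and the comparisons that follow go by the labels. Library WT replicate 2 stood apart on the first principal component, at 66.2 against −27.5 to 7.66 in the other 8. Markers of fibroblasts were abundant, with a summed 45063 to 64271 CPM over 8 genes in the libraries labelled Il17ra-/- and 53438 to 59567 CPM in those labelled WT. Of these 8 genes, 1 was called lower in the libraries labelled Il17ra-/-. Markers of muscle fibres summed to 2764 to 3662 CPM over 7 genes in the libraries labelled Il17ra-/- and to 962 to 2457 CPM in those labelled WT, with 3 of the 7 called higher. Pericyte and smooth muscle markers summed to 1676 to 2347 CPM over 6 genes in the libraries labelled Il17ra-/- and to 998 to 1278 CPM in those labelled WT, with 5 of the 6 called higher. The 5 satellite cell markers, 2 of them called higher, summed to 207 to 293 CPM in the libraries labelled Il17ra-/- and to 117 to 189.6 CPM in those labelled WT. The 4 adipocyte markers, 1 of them called higher, summed to 7.90 to 28.4 CPM in the libraries labelled Il17ra-/- and to 2.07 to 6.82 CPM in those labelled WT. The part of these cell types in the values below was not tested, and in bulk tissue fewer cells of a type cannot be told apart from less RNA per cell. The leukocyte gene Ptprc reached at most 0.461 CPM and the endothelial gene Pecam1 at most 3.38 CPM. How far the libraries stand for whole injured muscle was not tested, so levels and ranks below describe these libraries only.

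None of the 6 genes with enough counts for the fit was called at an adjusted p under 0.05, against 3.06% of the 16039 genes tested. The seventh, Serpinf2, had too few counts to enter it. All 6 log2 fold changes, labelled Il17ra-/- minus WT, were negative, from −0.61 for Plaur to −0.08 for Serpine2. Their median was −0.25, beside −0.00 over all tested genes, of which 8073 had a negative and 7966 a positive value. For all 6 genes the libraries of the 2 labels overlapped, whereas 9.18% of tested genes had groups that did not. At an unadjusted threshold of 0.05, 2 of the 6 passed in edgeR's test, 3 in DESeq2 and 1 in limma-voom. Of all genes with a p-value, 16.4% passed that threshold in edgeR, 18.3% in DESeq2 and 17.5% in limma-voom. None of the 6 was called by any of these tools after adjustment.

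**Figure D1:**
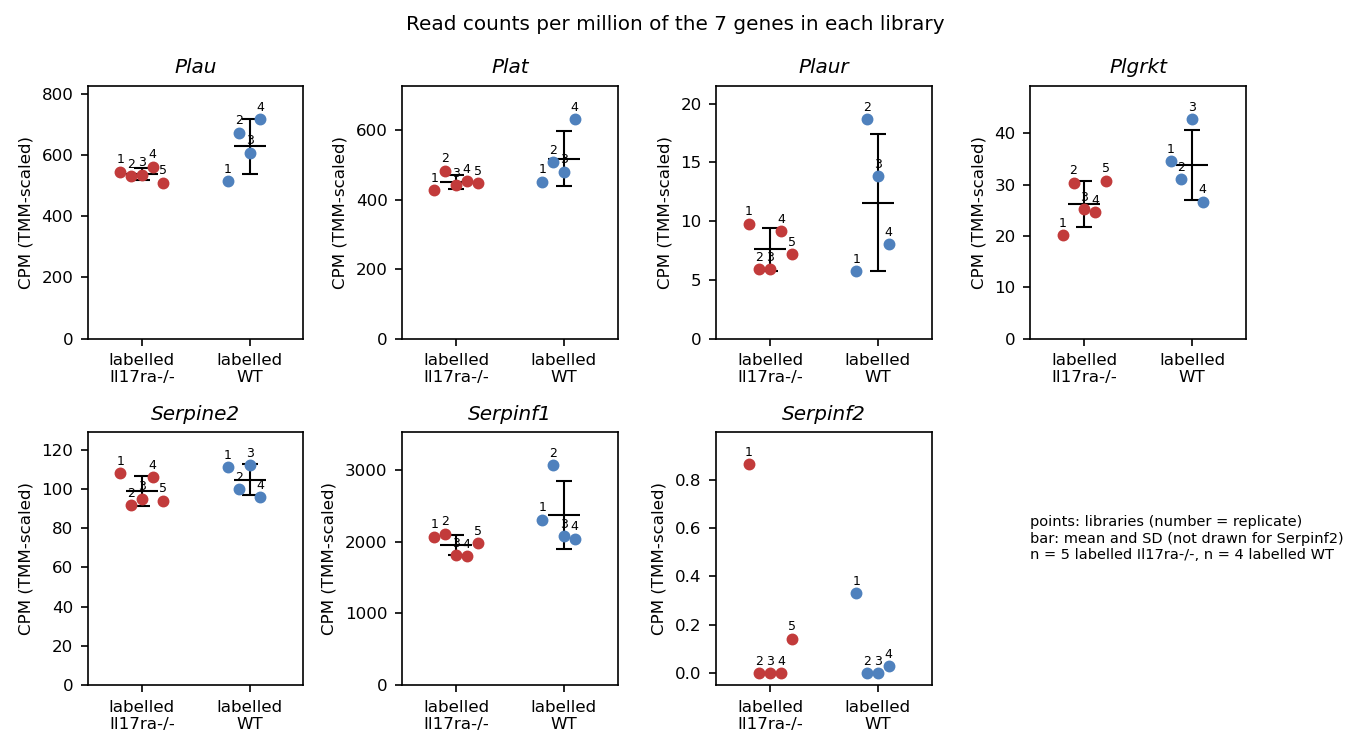
CPM of each of the 7 genes (vertical axis, linear) in the 5 libraries labelled Il17ra-/- (red) and the 4 labelled WT (blue); points are libraries with their replicate number, and bars give the mean and SD except for Serpinf2. The points of the 2 labels overlap in every panel, and WT replicate 2 is the highest point for Plaur (18.7 CPM) and Serpinf1 (3068 CPM).

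Plau, the urokinase-type activator secreted by migrating and matrix-remodelling cells, was abundant in all 9 libraries. It stood at 547, 532, 537, 563 and 511 CPM in libraries 1 to 5 labelled Il17ra-/-, against 515, 674, 609 and 719.5 CPM in libraries 1 to 4 labelled WT. The libraries labelled Il17ra-/- lay close together and 3 of the 4 WT libraries lay above all of them, but WT replicate 1 fell among them. The means were 538 ± 19.5 CPM (SD, n = 5) for the Il17ra-/- label and 629 ± 88.8 CPM (SD, n = 4) for WT. The fold was 0.855 with a 95% interval of 0.726 to 1.01 (log2 fold change −0.23, SE 0.11, adjusted p = 0.328). Plau spans bases 20836660 to 20843385 of chromosome 14 (GRCm38, plus strand) with 2367 exon bases.

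Plat encodes the tissue-type activator, which endothelial cells release and which binds fibrin. Its values were 427, 484, 442, 453 and 447 CPM in libraries 1 to 5 labelled Il17ra-/- and 452, 508, 481 and 633 CPM in libraries 1 to 4 labelled WT. WT replicate 4 was the highest, and WT replicates 1 and 3 lay within the range of the libraries labelled Il17ra-/-. The fold was 0.869 (95% interval 0.735 to 1.03; log2 fold change −0.20, SE 0.11, adjusted p = 0.399), and without WT replicate 4 the log2 fold change was −0.09 (adjusted p = 0.718). The 7 endothelial markers, of which none was called, summed to 302 to 379.6 CPM in the libraries labelled Il17ra-/- and to 262 to 457 CPM in those labelled WT. Tek made up most of this sum at a mean of 295 CPM, while Pecam1 averaged 1.34 ± 0.477 CPM (SD, n = 5) with the Il17ra-/- label and 2.38 ± 0.730 CPM (SD, n = 4) with WT. Plat spans bases 22757727 to 22782844 of chromosome 8 (plus strand).

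The ratio of the activators was compared within libraries. Per kilobase of exon, Plau stood at 2.90 to 3.38 times Plat in the libraries labelled Il17ra-/- (median 3.20) and at 3.00 to 3.50 times Plat in those labelled WT (median 3.17). These ranges overlap.

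Plaur, the GPI-anchored receptor that concentrates urokinase on cells and is known for its induction in activated myeloid cells, was the most variable of the 6 genes. It stood at 9.79, 5.91, 5.93, 9.14 and 7.17 CPM in libraries 1 to 5 labelled Il17ra-/-, against 5.73, 18.7, 13.8 and 8.03 CPM in libraries 1 to 4 labelled WT. WT replicates 2 and 3 lay above all libraries labelled Il17ra-/-, and WT replicate 1 was the lowest of all 9. The values rest on 209 to 570 counts per library. The fold was 0.656 with a wide 95% interval of 0.417 to 1.03 (log2 fold change −0.61, SE 0.30, adjusted p = 0.340). Without WT replicate 2 the log2 fold change was −0.28 (adjusted p = 0.713), against −0.61 over all 9 libraries. The SD of its log2(CPM + 1) within groups was 0.51, beside 0.11 to 0.26 for the other 5 genes and a median of 0.26 over all tested genes.

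The 10 leukocyte markers, set beside Plaur because myeloid cells carry the receptor, summed to 12.7 to 20.1 CPM in the libraries labelled Il17ra-/- and to 23.8 to 39.8 CPM in those labelled WT. Of the 6 that were tested, Cd68 was called, lower in the libraries labelled Il17ra-/- (log2 fold change −2.80, adjusted p = 2.17e-04), and the other 5 were not. Csf3r was at 0 counts in all 9 libraries, and Ptprc, the pan-leukocyte marker, reached at most 0.461 CPM. Ptprc averaged 0.266 ± 0.171 CPM (SD, n = 5) with the Il17ra-/- label and 0.112 ± 0.121 CPM (SD, n = 4) with WT. Its difference thus ran opposite to that of Cd68, with overlapping groups (edgeR adjusted p = 0.673) and at most 17 counts in a library. The part of leukocyte RNA in the Plaur values was not tested.

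The promoter of Plaur is shown because this gene had the largest difference in the family and the widest spread. Plaur spans bases 24462484 to 24475968 of chromosome 7 (plus strand). The window holds 250 bases before and 50 after the RefSeq start (GRCm38.p6, chr7:24462233-24462532, plus strand), and capitals mark matches to any motif searched.
Plaur: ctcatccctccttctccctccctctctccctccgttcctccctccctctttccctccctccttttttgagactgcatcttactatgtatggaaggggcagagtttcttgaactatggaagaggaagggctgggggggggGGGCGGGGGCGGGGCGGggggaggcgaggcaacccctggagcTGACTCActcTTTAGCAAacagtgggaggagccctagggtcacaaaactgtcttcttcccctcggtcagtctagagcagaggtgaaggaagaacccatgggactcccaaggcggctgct
The letters searched, on both strands, were the TATA box letters TATAAA, the pentamer CCAAT of promoters, the GC box hexamer GGGCGG, the AP-1 letters TGANTCA, and further TTGCNNAA (C/EBP), GGGANTTTC (part of an NF-kB site) and GTTAATNAT (part of an HNF1 site). The Plaur window holds 3 GC boxes, the last pair sharing 1 base, an AP-1 match at position −69 and a C/EBP match on the other strand at position −59. Of the 32851 windows in the table, 35.7% hold a GC box, 7.81% the AP-1 letters and 10.8% the C/EBP letters. Matches describe these letters and not binding.

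Plgrkt, a membrane protein with a C-terminal lysine that binds plasminogen, stood at 20.1, 30.4, 25.2, 24.6 and 30.8 CPM in libraries 1 to 5 labelled Il17ra-/-. In libraries 1 to 4 labelled WT it stood at 34.6, 31.1, 42.8 and 26.7 CPM. WT replicates 1, 2 and 3 lay above all libraries labelled Il17ra-/-, and WT replicate 4 lay among them. The fold was 0.776 (95% interval 0.609 to 0.988; log2 fold change −0.37, SE 0.16, adjusted p = 0.278). This interval, which is not adjusted for the number of genes, lies just below 1. The log2 fold change ran from −0.46 without WT replicate 4 to −0.23 without WT replicate 3. Plgrkt spans bases 29348599 to 29367390 of chromosome 19 (minus strand).

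Serpine2 encodes protease nexin-1, an inhibitor of thrombin and of both plasminogen activators. It differed least, at 108, 91.7, 95.0, 106 and 94.0 CPM in libraries 1 to 5 labelled Il17ra-/- and 111, 99.9, 112 and 95.9 CPM in libraries 1 to 4 labelled WT. Libraries of the 2 labels were interleaved. The fold was 0.945 with a 95% interval of 0.814 to 1.10 (log2 fold change −0.08, SE 0.10, adjusted p = 0.741). Serpine2 spans bases 79794197 to 79861180 of chromosome 1 (minus strand) and, with 8287 exon bases, has the longest exon length of the family.

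Serpinf1 encodes pigment epithelium-derived factor, a secreted serpin that binds collagen and restrains vessel growth but does not inhibit proteases. It was by far the most abundant of the family, with 66465 to 99405 counts per library. It stood at 2075, 2115, 1815, 1802 and 1978 CPM in libraries 1 to 5 labelled Il17ra-/-, against 2311, 3068, 2078 and 2046 CPM in libraries 1 to 4 labelled WT. WT replicate 2 was the highest, and WT replicates 3 and 4 lay within the range of the libraries labelled Il17ra-/-. The fold was 0.824 with a 95% interval, unadjusted, of 0.680 to 0.998 (log2 fold change −0.28, SE 0.13, adjusted p = 0.297). Without WT replicate 2 the log2 fold change was −0.13 (adjusted p = 0.548).

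Serpinf2 encodes alpha-2-antiplasmin, the main inhibitor of plasmin in blood, made chiefly by the liver. It had 34, 0, 0, 0 and 6 counts in libraries 1 to 5 labelled Il17ra-/- and 12, 0, 0 and 1 counts in libraries 1 to 4 labelled WT. It was at 0 in 5 of the 9 libraries, and a count of 0 allows up to 3 counts, or 0.0638 to 0.0984 CPM by library. In the fit with no low-count filter its log2 fold change was 1.14 (adjusted p = 0.792). Plasminogen itself (Plg) had 3 counts in Il17ra-/- replicate 2 and 0 in the other 8 libraries. The hepatocyte markers Alb, Apoa1 and Ttr summed to at most 0.319 CPM in the libraries labelled Il17ra-/- and 0.230 to 1.41 CPM in those labelled WT, with Ttr at 0 in all.

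Serpinf1 and Serpinf2 are neighbours on chromosome 11, both on the minus strand, at 75409769 to 75422701 and 75431732 to 75439591. They are 9030 bases apart with 2 numbered gene models between them. Summed over the 9 libraries they had 739027 and 53 counts. Their promoter windows are printed because the adjacent genes lie at opposite ends of the family's range of levels. Capitals mark matches to the motifs searched, and the windows are chr11:75422574-75422873 for Serpinf1 and chr11:75439452-75439751 for Serpinf2, both on the minus strand of GRCm38.p6.
Serpinf1: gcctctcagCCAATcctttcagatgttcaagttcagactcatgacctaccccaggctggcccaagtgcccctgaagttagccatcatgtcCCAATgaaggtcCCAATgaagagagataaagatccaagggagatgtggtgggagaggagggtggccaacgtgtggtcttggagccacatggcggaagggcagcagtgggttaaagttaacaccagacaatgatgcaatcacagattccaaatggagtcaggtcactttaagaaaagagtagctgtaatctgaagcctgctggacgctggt
Serpinf2: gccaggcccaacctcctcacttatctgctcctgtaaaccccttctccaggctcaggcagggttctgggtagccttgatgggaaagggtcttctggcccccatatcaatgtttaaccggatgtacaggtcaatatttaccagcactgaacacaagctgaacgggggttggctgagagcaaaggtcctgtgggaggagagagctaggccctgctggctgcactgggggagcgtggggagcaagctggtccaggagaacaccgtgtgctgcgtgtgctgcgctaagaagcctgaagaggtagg
The Serpinf1 window holds 3 CCAAT letters, which 37.4% of all windows hold at least once, and none of the other motifs. The Serpinf2 window holds none of the 7 motifs. The windows have 50.7% and 57.3% G and C bases, beside a median of 52.7% over all windows. Windows were also found for Serpine2 and Plgrkt, so 5 of the 7 genes matched; Plau and Plat did not.

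Levels were set in order per kilobase of exon, since longer transcripts give more counts. The length is that of all annotated exons of a gene, merged over its transcripts, 2 for Plau and 10 for Plgrkt. It may exceed the length of the transcripts present, so the order, ratios and ranks depend on it. Over the 9 libraries the means were 908 CPM per kilobase for Serpinf1, 244 for Plau, 77.1 for Plat, 12.2 for Serpine2, 7.79 for Plgrkt, 3.58 for Plaur and 0.0652 for Serpinf2. This order held between every pair of neighbours in 9 of 9 libraries. The ranges over libraries did not overlap between neighbours, except for Serpine2 (11.1 to 13.5) with Plgrkt (5.29 to 11.3) and for Plgrkt with Plaur (2.19 to 7.14). Serpinf1 ranked 27th by level per kilobase among the 16039 tested genes, Plau was at rank 159 and Plat at rank 504, while Plaur was at rank 7922, near the middle. Within a library, the level per kilobase of Plau over that of its receptor gene Plaur was 61.8 to 100.2 in the libraries labelled Il17ra-/- and 39.9 to 99.4 in those labelled WT.

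**Figure D2:**
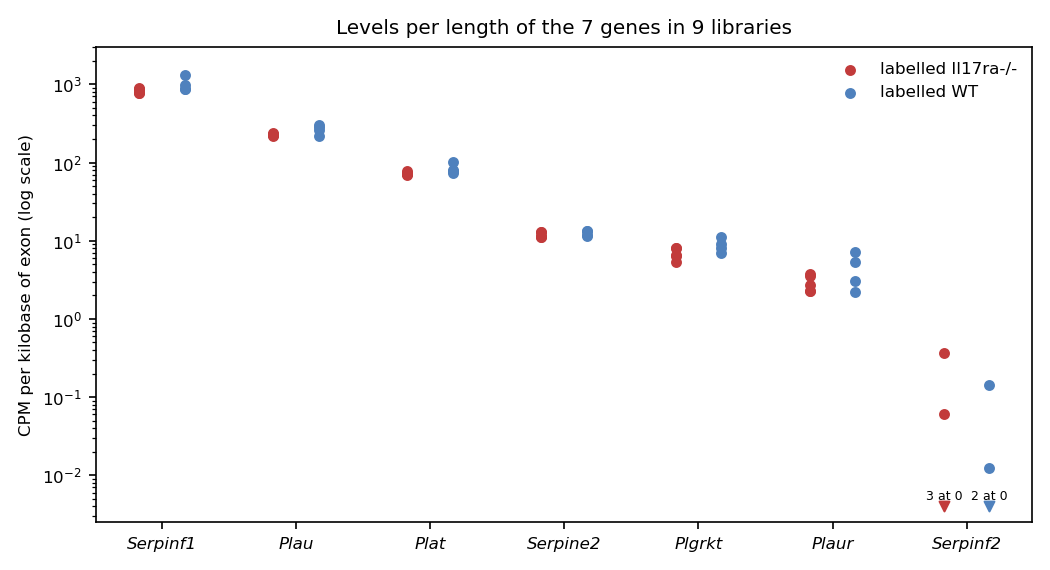
CPM per kilobase of exon (vertical axis, log scale) for the 7 genes in order of their mean, with the libraries labelled Il17ra-/- in red left of those labelled WT in blue; triangles at the bottom count libraries with 0 counts. Means run from 908 for Serpinf1 to 0.0652 for Serpinf2, and 5 libraries of Serpinf2 are at 0.

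Profiles over the 9 libraries were compared as the root mean square difference of log2(CPM + 1), each gene centred on its own mean, a measure of likeness and no test. The nearest genes were picked from 12491 candidates. On the same scale the SD of the gene's own profile was 0.17 for Plau, 0.16 for Plat, 0.10 for Serpine2 and 0.50 for Plaur. Small differences are therefore easily reached for the flatter profiles. The genes most like Plau were Tsen15 (0.07), Kdelc2 (0.07) and Eif3e (0.08). For Plat they were Kif2a (0.05), Kdelc2 (0.07) and Lpcat1 (0.07), so that Kdelc2 was among the nearest to both activators. Dap, Slc39a1 and Syf2 were nearest to Serpinf1 (0.05 to 0.06), Smyd5, Dusp3 and Ppp2r5a to Serpine2 (0.03 to 0.07), and Clcn2, Lrif1 and Ezh2 to Plgrkt (0.05 to 0.09). For the more variable Plaur the nearest were Prrt4, Gtf2h3 and Ednrb, at 0.15 to 0.23.

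The wider pathway was described with 76 other genes in 6 lists. Of the 56 that were tested, 1 was called lower (1.71% of all tested genes were) and none higher (1.35% were). Their median log2 fold change was −0.11, with 22 positive and 34 negative values. At an adjusted threshold of 0.05, DESeq2 called 6 of these genes and limma-voom 1, beside 6.34% and 3.11% of all tested genes. Of the 56, 5 had groups that did not overlap, beside 9.18% of all tested genes. Tgfb1, Mmp2, Sdc4 and Tfpi2 were lower under the knockout label, and Serpini1 was higher (log2 fold change 0.52, edgeR adjusted p = 0.214).

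Tfpi2, a secreted Kunitz inhibitor of plasmin and of the tissue factor complex, was the called gene, lower in the libraries labelled Il17ra-/-. It stood at 17.3, 16.0, 11.6, 15.9 and 12.5 CPM in libraries 1 to 5 labelled Il17ra-/-, against 25.0, 56.5, 22.5 and 21.6 CPM in libraries 1 to 4 labelled WT. The groups did not overlap and WT replicate 2 was far above the other WT libraries. The log2 fold change was −1.10 (SE 0.26, adjusted p = 0.0352). Without WT replicate 2 it was −0.65 and still called (adjusted p = 0.0264). The call was lost when any 1 of the 5 libraries labelled Il17ra-/- was left out (log2 fold changes −1.16 to −1.03, adjusted p = 0.0630 to 0.101), in limma-voom (−0.98, adjusted p = 0.0519) and in a fit with the replicate number as a block (−0.93, adjusted p = 0.0793). Of the other 10 coagulation partners tested none was called. Procr, which codes for the endothelial protein C receptor, stood at −0.43 on the log2 scale (adjusted p = 0.0875) and F3, tissue factor, which starts coagulation, one of −0.25 (adjusted p = 0.310).

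Among plasmin substrates and proenzymes, 0 of 8 tested genes was called. The smallest p-values belonged to Tgfb1, a growth factor whose latent form plasmin can release, at −0.35 on the log2 scale (adjusted p = 0.169), and to the matrix metalloproteinase gene Mmp2 at −0.21 (adjusted p = 0.353). Both had groups that did not overlap, Tgfb1 with 16.8 ± 1.27 CPM (SD, n = 5) in the libraries labelled Il17ra-/- and 21.5 ± 2.12 CPM (SD, n = 4) in those labelled WT. Plg and the fibrinogen genes Fga, Fgb and Fgg, all made in the liver, had too few counts to be tested, with at most 37 counts in a library.

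None of the 5 tested genes in a list of other proteases, not limited to plasminogen activators, was called. Htra1, a secreted serine protease, stood at −0.37 (adjusted p = 0.206) and Prss23 at −0.32 (adjusted p = 0.285). All 5 had negative log2 fold changes, with a median of −0.37.

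Of 9 other inhibitor genes tested, 0 was called. Timp1, an inhibitor of the matrix metalloproteinases that plasmin can activate, had the smallest p. It stood at 17.8, 21.8, 20.1, 19.1 and 25.3 CPM in libraries 1 to 5 labelled Il17ra-/-, against 36.5, 62.3, 21.2 and 28.1 CPM in libraries 1 to 4 labelled WT. WT replicate 3 lay among the libraries labelled Il17ra-/- and the other 3 WT libraries above them. The log2 fold change was −0.83 (SE 0.25, adjusted p = 0.0954), and without WT replicate 2 it was −0.46 (adjusted p = 0.183). Serpinb6a, an intracellular serpin with close relatives among which reads may be split, stood at −0.38 (adjusted p = 0.195).

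Cell surface binding and clearance genes held 0 calls among 19 tested. Sdc4, a heparan sulfate proteoglycan, stood at −0.40 on the log2 scale (adjusted p = 0.114) with groups that did not overlap. S100a10 and Anxa2, whose products form a plasminogen-binding complex, stood at −0.55 (adjusted p = 0.166) and −0.07 (adjusted p = 0.826) on the log2 scale. Lrp1, which clears activators bound to inhibitors, stood at 0.31 (adjusted p = 0.401).

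None of the 4 tested genes among other serpins of connective tissue was called. Serpina3n, a secreted acute-phase serpin from a cluster of near-identical genes, stood at −0.71 on the log2 scale (SE 0.22, adjusted p = 0.112). Reads may be split among the genes of this cluster, which was not tested, so the counts of Serpina3n may be uncertain. Serpinh1, the collagen chaperone of the endoplasmic reticulum, stood at 1846 ± 191 CPM (SD, n = 5) with the Il17ra-/- label and 2084 ± 334 CPM (SD, n = 4) with WT (−0.17, adjusted p = 0.530).

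**Figure D3:**
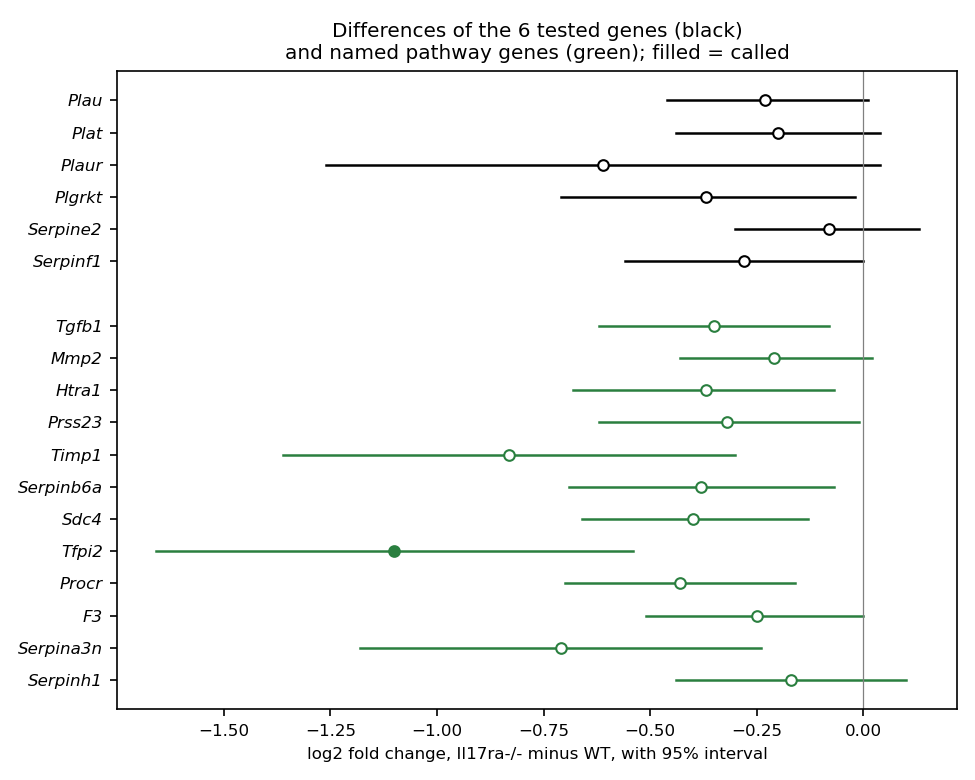
Log2 fold change (Il17ra-/- minus WT, horizontal axis) with its unadjusted 95% interval for the 6 tested genes of the family (black) and 12 genes of the pathway lists (green); a filled point is a called gene. Tfpi2 at −1.10 is the filled point, and the family lies between −0.61 and −0.08.

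**Figure D4:**
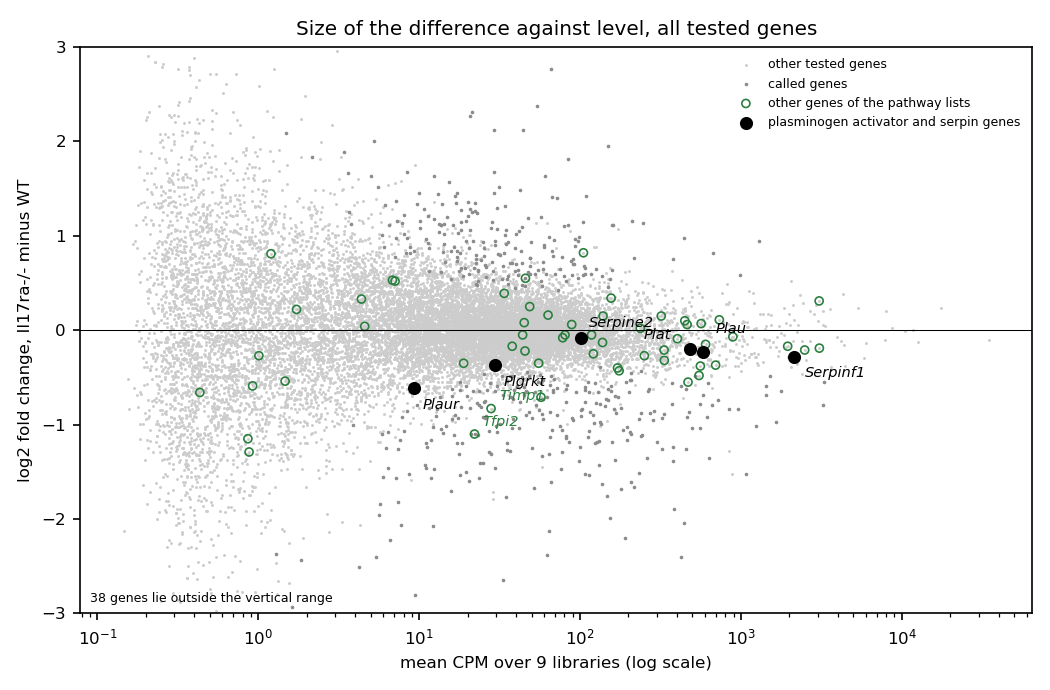
Log2 fold change (vertical axis, Il17ra-/- minus WT) against mean CPM (horizontal axis, log scale) for the 16039 tested genes, with the 6 tested genes of the family in black, the pathway genes as green circles and called genes in dark grey; 38 genes lie outside the vertical range. The 6 black points lie just below 0, among genes that were not called.

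The 6 differences were recomputed with other scalings, filters and tools and with libraries left out. Over 18 alternatives the log2 fold changes ran from −0.31 to −0.15 for Plau, −0.26 to −0.09 for Plat, −0.83 to −0.28 for Plaur, −0.46 to −0.23 for Plgrkt, −0.13 to −0.02 for Serpine2 and −0.34 to −0.13 for Serpinf1. None of the 6 genes was called under any of them and none changed sign.

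**Figure D5:**
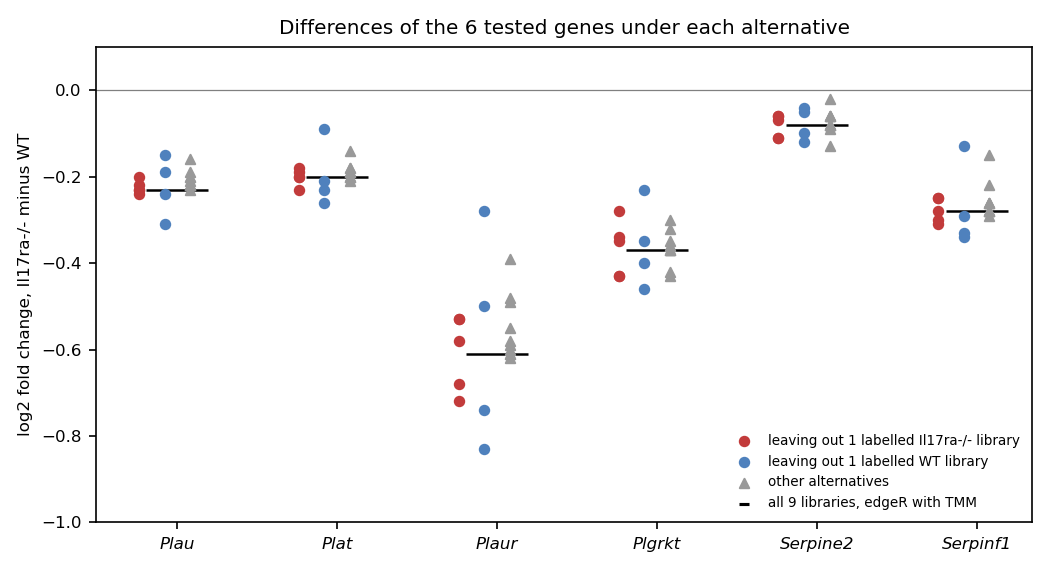
Log2 fold change (vertical axis, Il17ra-/- minus WT) of the 6 tested genes under each alternative, with a black line for the value over all 9 libraries, red and blue points for fits that leave out 1 library of either label, and grey triangles for other alternatives. All points lie below 0, and those of Plaur spread most, from −0.83 to −0.28.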

How the data were processed

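RNA of quadriceps was sequenced in 5 libraries labelled Il17ra-/- and 4 labelled WT. The submitters' processing notes name STAR as aligner, without a version. The deposited values are raw read counts per gene, made with featureCounts 1.6.0 over GENCODE M21 exons (GRCm38), for pairs and without strand, per the file headers. No exon base of the 7 genes is shared with another annotated gene, so that overlap costs them no reads.

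Of 55536 identifiers, 55450 matched a name. After filterByExpr and TMM scaling, 16039 genes were compared with edgeR 4.0.16 (R 4.3.3), quasi-likelihood test, two-sided, Benjamini-Hochberg threshold 0.05, genotype label as the only term. SE is |log2 fold change|/√F; 95% intervals use the test's degrees of freedom. The fit was tested on simulated counts. Library totals ran from 31294089 to 46435401 counts. The limits given for counts of 0 cover counting error only, while SE and intervals include the spread between libraries. Alternatives include DESeq2 1.42.0 and limma 3.58.1. The genes and lists were chosen with earlier results of these data known. Named pathway genes were each list's called genes and its 2 with the smallest p among the others. Plg, Fga, Fgb, Fgg, S100a10, Anxa2, Lrp1 and Serpini1 were named after their values were seen. Some genes of the pathway are not reported here. Promoter sequences are RefSeq's (GRCm38.p6).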

Additional observations from a re-analysis of the deposited data

Results flagged for a closer look

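Among 20 genes of the family and pathway lists, each was examined in both groups. In 4 of 40 groups a library lay far from the others of its label by its share of the group's range. For normally distributed values chance gives about 1 in 20. That rate does not hold for Serpinf2, at 0 counts in 5 libraries, so the 4 cannot be read as an excess. Serpinf2 reached 0.865 CPM in Il17ra-/- replicate 1, against 0.142 CPM in the next library of that label, and 0.329 CPM in WT replicate 1, against 0.0287 CPM in the next. These values rest on 34 and 12 counts. Tfpi2 stood at 56.5 CPM in WT replicate 2, against 25.0 CPM in the next WT library. Serpinh1 stood at 1513 CPM in Il17ra-/- replicate 4, against 1869 CPM in the next library of that label.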

How the results depend on the processing

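For the 7 genes, the count of calls was 0 under all 18 alternatives. Of the pathway genes, 1 was called over all 9 libraries; 2 were called with library totals only, 4 with no low-count filter, 2 with a filter of 10 counts in every library of either group, 6 with DESeq2, and 3 without WT replicate 2 and Il17ra-/- replicate 1 together. Leaving out 1 library gave 0 to 3: 0 without Il17ra-/- replicate 1, 3, 4 or 5, and 3 without WT replicate 1 or WT replicate 2. Over all genes 491 were called, against 1017 by DESeq2 and 275 to 567 when 1 library was left out (275 without Il17ra-/- replicate 3, 323 without Il17ra-/- replicate 1). Of the 491, 55.8% were lower under the knockout label, against 41.3% of the 562 called with library totals only, where the median of all genes was 0.06. The cause of these changes was not tested.

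Replicate numbers are shared by the labels for 4 pairs. Deviations of same-numbered libraries correlated at 0.03 to 0.08 over genes, beside −0.12 to 0.08 for differently numbered ones. The numbers were not taken to pair the libraries. With the numbers as a block over 8 libraries, 366 genes were called, 1 pathway gene (Serpina3n) and 0 of the 7. Without the block, those 8 libraries, an alternative chosen after seeing the data, gave 417, 0 and 0. The log2 fold change of Tfpi2 was −0.93 with the block (adjusted p = 0.0793) and −1.04 without it (adjusted p = 0.0892). The depth limits Serpinf2, at 0 counts in 5 libraries.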
